A study of Mus musculus with 8 samples.

Results

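The genes described here encode the subunits, activators and assembly chaperones of the mouse proteasome. They were chosen by name: protein-coding genes of the RefSeq annotation for GRCm38 whose symbol is Psma, Psmb, Psmc, Psmd, Psme or Psmg followed by a number. This gave 47 genes of the 21535 protein-coding genes for which a strand was known. The naming rule uses no measured value, although the family was picked with earlier results of these data known. CUT&Tag, in which an antibody brings a transposase to chromatin so that nearby DNA is cut and tagged, was applied to MEL cells, an erythroleukaemia line of mouse. One antibody recognised the C-terminal domain of Rpb1, the largest subunit of RNA polymerase II, phosphorylated on serine 5 (Ser5P), and the other the same domain phosphorylated on serine 2 (Ser2P). Each antibody was used on a dCAS control line and on a CRISPR-edited line labelled Myrlin KD (KD), a knockdown of an RNA transcribed from an enhancer of Myb, with 2 biological replicates each. This gave 8 libraries in 4 groups of 2. Whether either line is a single clone, and how the replicate cultures were kept apart, is not given in the sources used here, so the p-values below reflect only how these libraries vary, which could be technical.

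The proteasome degrades proteins tagged with ubiquitin. Its 20S core is a barrel of stacked rings, with alpha subunits (Psma) forming the gated outer rings and beta subunits (Psmb) forming the inner rings that hold the proteolytic sites. The 19S cap recognises ubiquitin, unfolds the substrate with its ATPases (Psmc) and removes the ubiquitin with help from its non-ATPase subunits (Psmd). PA28 and PA200 (Psme) are alternative caps, and Psmg proteins help to assemble the core. In textbook accounts Ser5P marks polymerase near the start of a gene and Ser2P accumulates as transcription elongates. Erythroid cells use the proteasome while they remodel their protein content during maturation.

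Each library was available as a list of peaks called for that library alone, so every value is a length in base pairs (bp) covered by peaks, not a read density. A promoter window spanned 1000 bp each side of the gene's outer 5′ end. A gene window began 1000 bp downstream of the 5′ end and stopped 3000 bp beyond the 3′ end. The Ser5P lists held 21574 to 25441 peaks and the Ser2P lists 20793 to 32125. Relative depth, the background pileup recovered from the lists, was 0.566 and 0.639 in the Ser5P controls, 0.649 and 0.841 in the Ser5P KD libraries, 0.78 and 0.439 in the Ser2P controls, and 1.12 and 1.03 in the Ser2P KD libraries. Median peak width was 486 and 497 bp, 533.5 and 532 bp, 428 and 381 bp, and 478 and 479 bp in the same order, so the second Ser2P control was the shallowest and had the narrowest peaks. Of the erythroid marker genes, Klf1, Tal1, Nfe2, Epor, Tfrc, Zfpm1, Epb42 and Hemgn had a promoter Ser5P peak in all 4 libraries, while Gata1, Alas2, Slc4a1 and Ank1 had none and Gfi1b had one in 3. No lymphoid or myeloid marker of 10 each had a promoter Ser5P peak in any library, and of 10 non-haematopoietic markers 1, Col1a1, had one in 3 libraries. Promoter Ser2P peaks were present at Cd79a in 2 libraries, Lck in 1, Gfap in 2 and Col1a1 in 3. These windows sit at the outer 5′ end, so a peak at a start farther inside a gene was not counted.

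Several promoters are shown first because they are named in the results below. They are the 150 bases upstream of a start in the RefSeq promoter table for GRCm38.p6, written 5′ to 3′ on the gene's strand, with capitals marking 5 motifs searched on either strand. These were CCAAT for the CCAAT box, GGGCGG for the GC box, CCGGAAG for ETS family sites, GATAA for GATA factors, and TGACTCA for the core shared by NF-E2, AP-1 and many antioxidant response elements. Matches of different motifs can overlap, as they do in Psmd4. Psma6 is shown at both of its annotated starts, chr12:55384072-55384221 and chr12:55398675-55398824 on the plus strand, because only the inner one carried peaks. Psmd4 (chr3:95042615-95042764, minus strand) and Psmd1 (chr1:86064469-86064618, plus strand) had some of the highest ranking promoter peaks. Psme1 (chr14:55578344-55578493, plus strand) and Psme2 (chr14:55591102-55591251, minus strand) are the PA28 pair. Their Ser5P and Ser2P coverage differed in opposite directions between the lines, as it did in the same order at 4.04% of genes with a promoter peak. Psmg3 (chr5:139826895-139827044, minus strand) and Psmd9 (chr5:123228040-123228189, plus strand) were weakly marked.
Psma6 outer start: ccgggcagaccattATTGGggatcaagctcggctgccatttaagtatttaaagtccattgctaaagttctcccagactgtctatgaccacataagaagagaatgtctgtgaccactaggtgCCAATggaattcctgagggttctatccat
Psma6 inner start: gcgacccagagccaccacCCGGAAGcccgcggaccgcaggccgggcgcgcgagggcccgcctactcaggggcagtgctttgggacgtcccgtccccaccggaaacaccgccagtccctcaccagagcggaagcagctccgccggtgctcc
Psmd4: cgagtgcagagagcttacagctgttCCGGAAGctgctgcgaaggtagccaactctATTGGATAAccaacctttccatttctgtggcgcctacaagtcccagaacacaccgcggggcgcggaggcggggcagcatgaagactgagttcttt
Psmd1: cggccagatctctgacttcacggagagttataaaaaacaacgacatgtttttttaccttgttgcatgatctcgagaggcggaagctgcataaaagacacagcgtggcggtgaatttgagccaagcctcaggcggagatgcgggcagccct
Psme1: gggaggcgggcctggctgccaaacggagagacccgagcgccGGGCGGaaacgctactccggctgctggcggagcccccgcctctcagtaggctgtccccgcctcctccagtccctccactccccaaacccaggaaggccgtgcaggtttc
Psme2: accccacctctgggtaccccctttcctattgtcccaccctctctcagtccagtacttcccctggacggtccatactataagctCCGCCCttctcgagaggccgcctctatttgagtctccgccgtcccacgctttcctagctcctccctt
Psmg3: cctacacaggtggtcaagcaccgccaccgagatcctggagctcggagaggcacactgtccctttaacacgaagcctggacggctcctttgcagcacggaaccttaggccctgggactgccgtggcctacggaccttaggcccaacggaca
Psmd9: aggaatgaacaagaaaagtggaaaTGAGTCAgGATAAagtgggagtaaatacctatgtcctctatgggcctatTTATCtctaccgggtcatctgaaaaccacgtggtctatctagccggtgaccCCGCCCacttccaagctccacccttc

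The promoter table held 39 of the 47 genes, with 42 windows of 300 bases each, from 250 bases before a start to 50 after it. CCGGAAG occurred in 35.7% of these windows and in 8.86% of all 32851 windows of the table. Among windows of genes with a promoter Ser5P peak in all 4 libraries, a set added after the first shares were seen, 21.6% held it. GGGCGG occurred in 57.1% of the proteasome windows, 35.7% of all windows and 66.2% of the windows of marked genes. CCAAT occurred in 33.3%, 37.4% and 40.8%, and GATAA in 19%, 25.4% and 15.5%. TGACTCA occurred in 2.38% of the proteasome windows, in Psmd9 alone, against 5.2% of all windows and 3.08% of those of marked genes. In the 150 bases before the start, the proteasome windows had a median of 62% G and C and all windows 54%. These are matches of letters and do not show binding.

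Nearly all proteasome genes carried polymerase at their promoters with both antibodies and in both lines. All 4 Ser5P libraries had a promoter peak at 42 of 47 genes, against 37.7% of all genes. All 4 Ser2P libraries had one at 42 of 47 as well, against 36.3% of all genes. In 41 genes both phosphorylations were called in all 8 libraries. By library, 43, 43, 43 and 44 genes were marked with Ser5P and 43, 42, 44 and 43 with Ser2P. The exceptions fell into a few cases: Psma6, Psma8 and Psmb11 had no promoter peak in any library (54.5% of all genes lacked Ser5P and 53.3% Ser2P), and Psmd10, Psmg3 and Psmb10 had one in some.

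**Figure D1:**
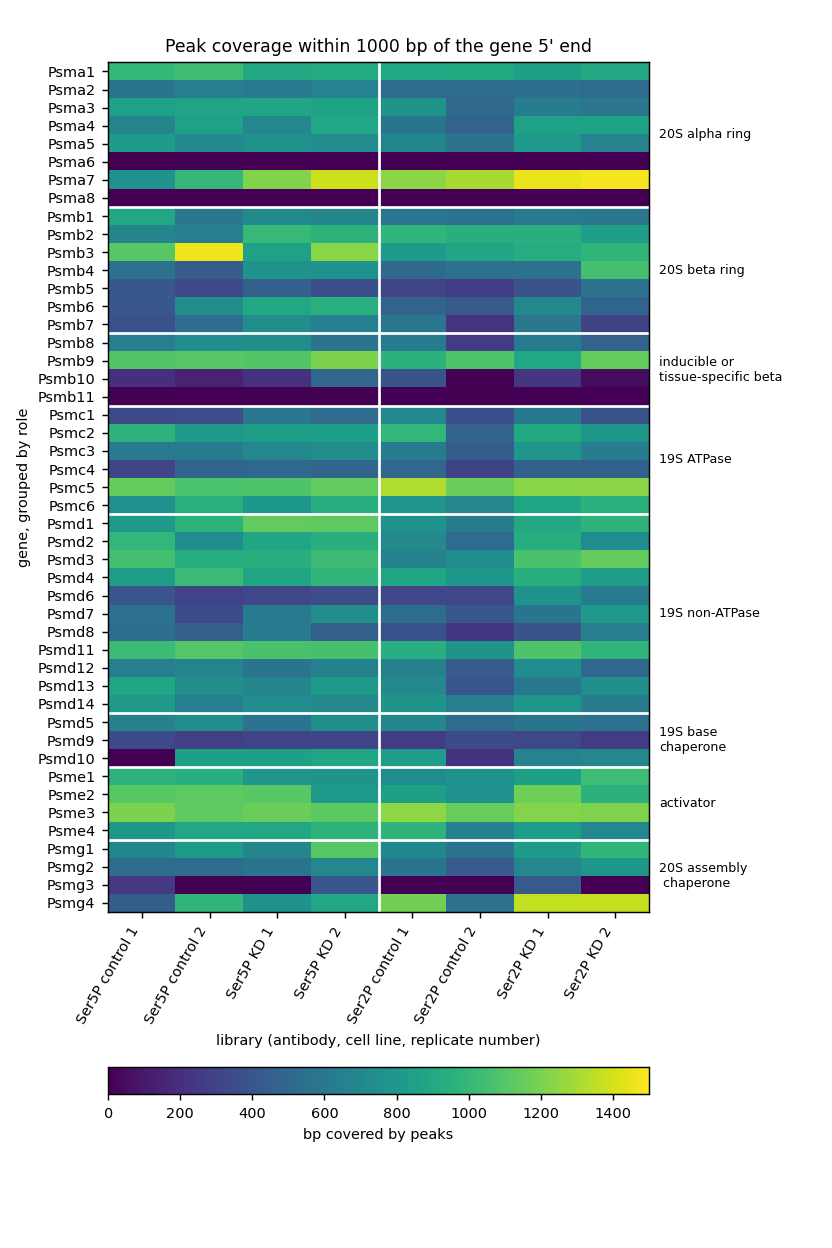
Each cell gives the bp of the promoter window (1000 bp each side of the outer 5′ end) covered by peaks, for 47 genes grouped by role (rows) and 8 libraries (columns). The rows of Psma6, Psma8 and Psmb11 are at 0 throughout, and Psmd10, Psmg3 and Psmb10 are the only other rows with an empty cell.

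Peaks were highest in share near the 5′ end and leaned upstream. In the 8 libraries between 72.3% and 85.1% of the proteasome genes were covered at the 5′ end itself, against 28.0% to 35.6% of all genes. At 1000 bp upstream the shares were 0.0% to 2.13% and 1.18% to 2.52%, and at 1000 bp inside the gene 2.13% to 6.38% and 2.45% to 5.77%. At 500 bp upstream 19.1% to 36.2% of the proteasome genes were covered and at 500 bp inside 12.8% to 31.9%, the upstream share being the higher in 7 of the 8 libraries. Over all genes the downstream share was the higher in each, with 5.41% to 12.03% upstream and 8.12% to 18.1% inside. No such profile is given for marked genes alone. An opposite-strand start lay in the promoter window of 21.3% of the proteasome genes, 10.8% of all genes and 23.9% of genes with promoter Ser5P in all 4 libraries. Peaks at such starts can count as upstream, and their part in the lean was not tested. The best promoter peak had its summit upstream of the 5′ end at 23 to 30 proteasome genes and downstream at 13 to 20, with a median position between −78.5 and −33 bp. Among genes with a promoter peak, the strength of that peak was close to that of other marked genes. The median percentile of the best promoter peak within its own list was 77.0 to 85.0 for the proteasome genes over the 8 libraries and 74.1 to 82.4 for all marked genes. The share of genes marked was read against the whole gene table and the rank only against marked genes, so these contrasts are not alike. Of 31 other pathway genes, described below, 26 also had promoter Ser5P in all 4 libraries.

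**Figure D2:**
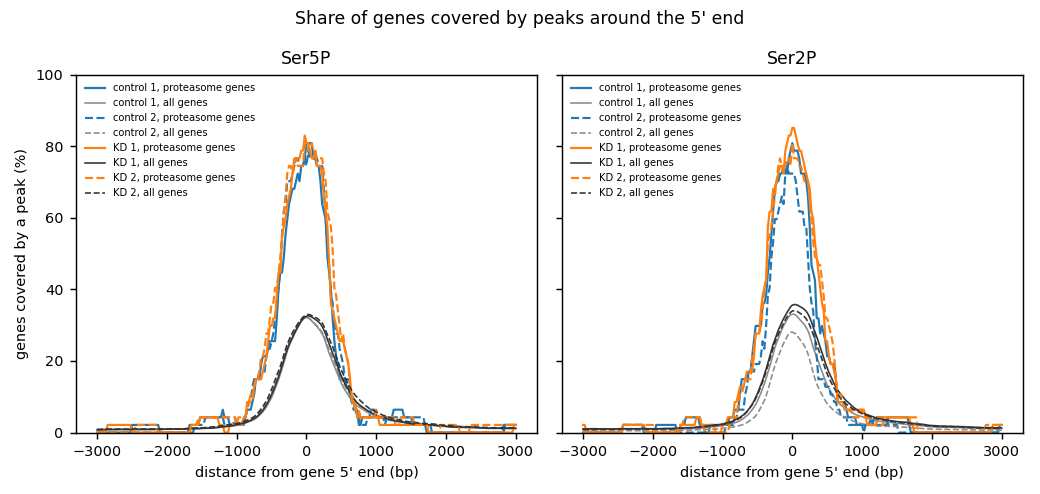
Lines give the percentage of the 47 proteasome genes (blue control, orange KD) and of all 21535 genes (light grey control, dark grey KD) covered by a peak at each distance in bp from the 5′ end, with replicate 1 solid and replicate 2 dashed. At the 5′ end the proteasome lines reach 72.3% to 85.1% and those of all genes 28.0% to 35.6%.

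In the alpha ring, 6 of 8 genes had promoter peaks in all 8 libraries. Psma7 (chr2:180036367-180042464, minus strand) had the longest promoter Ser5P coverage, 759 and 1000 bp in dCAS cells and 1214 and 1388 bp in knockdown cells (mean 1090.25, SD 272, n = 4). Its Ser2P coverage was 1242, 1301, 1451 and 1474 bp in control 1, control 2, KD 1 and KD 2. With both antibodies the KD libraries lay above the controls, and the 5′ end of Psma7 is 19 bp from that of Ss18l1 on the opposite strand, so their peaks cannot be told apart. Psma2 had the shortest coverage of the marked alpha genes, with 581 and 649 bp of Ser5P in the controls and 620 and 667 bp in knockdown cells. Those groups overlapped. Psma8 on chromosome 18, the alpha subunit of the testis proteasome, had no peak in either window in any library.

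Psma6, whose gene spans chr12:55384222-55418459 on the plus strand, was empty at its outer start in all 8 libraries. The promoter table lists another start 14603 bp inside the gene, and there every library had a peak. Within 1000 bp of that start the Ser5P coverage was 484 and 867 bp in dCAS cells and 782 and 982 bp in knockdown cells, and the Ser2P coverage 656, 488, 710 and 772 bp in the same order. The strongest summits lay at −175 to −30 bp from the inner start. The region upstream of the inner start, printed above, had 74.0% G and C and that of the outer start 45.3%. A smaller Ser5P peak with its summit between 5736 and 5818 bp inside the outer start was called in all 4 Ser5P libraries. Ser2P peaks with summits at 5581 and 5747 bp were called in knockdown cells only, at percentiles 41.4 and 59.6 of their lists. With Ser2P the KD libraries were deeper than the controls (values above), and the part of depth was not tested.

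**Figure D3:**
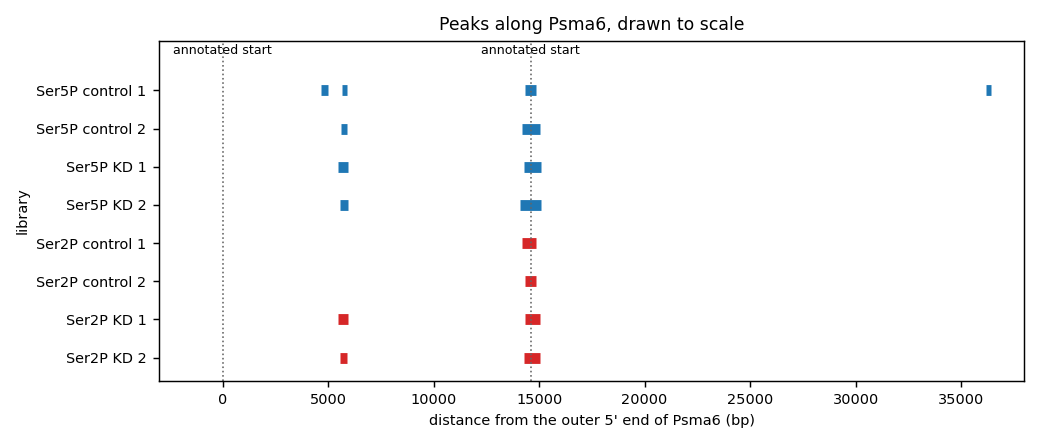
Horizontal bars are the peaks along Psma6 in each of the 8 libraries (Ser5P blue, Ser2P red), by distance in bp from the outer 5′ end, and dotted lines are the annotated starts. No bar touches the outer start, and every library has a bar at the start 14603 bp inside.

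Psma3 and Psmd2 also had annotated starts inside the outer end. The start listed for Psma3 is 5340 bp inside its outer end, and all 8 libraries had a peak there, with summits 51 to 122 bp past that start and 740 to 1062 bp covered. The outer end of Psma3 carried separate peaks whose median Ser5P summit position was −459 bp. Psmd2, a scaffold subunit of the 19S base, is listed 530 bp inside its outer end. Its summits lay 72 to 124 bp past that inner start in all 8 libraries. For Psmc2 a second listed start, 1472 bp inside, was within 1000 bp of a peak in 7 libraries and of none in the first Ser5P KD library.

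All 7 constitutive beta genes had promoter peaks in all 8 libraries. Psmb3 (chr11:97703434-97713500, plus strand) had the longest promoter Ser5P coverage, 1111 and 1460 bp in dCAS cells and 861 and 1233 bp in knockdown cells, with overlapping groups. Psmb5 (chr14:54614120-54617995, minus strand), which carries the chymotrypsin-like site, had the shortest: 410 and 333 bp in dCAS cells and 467 and 364 bp in knockdown cells. Its immunoproteasome counterpart Psmb8, which replaces it in cells exposed to interferon, had 643, 736, 749 and 571 bp. Ser2P covered 316, 267, 371 and 567 bp at Psmb5 and 614, 266, 616 and 474 bp at Psmb8. The median position of the Ser5P summit relative to the start was −446.5 bp at Psmb8 and −190.5 bp at Psmb5. The Ser5P coverage of Psmb8 was the longer in every library, from wider peaks of lower rank (given below with the other pairs).

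Psmb6 carries the caspase-like site and Psmb9 replaces it. Psmb6 had 406 and 739 bp of promoter Ser5P in the controls and 891 and 954 bp in knockdown cells, and 475, 417, 692 and 481 bp of Ser2P. Psmb9 had 1091, 1109, 1099 and 1207 bp of Ser5P and 964, 1086, 895 and 1145 bp of Ser2P. The start of Psmb9 lies 226 bp from that of Tap1, a peptide transporter gene of antigen presentation on the opposite strand, and the window does not separate these genes. Psmb7 carries the trypsin-like site and Psmb10 replaces it. Psmb7 had 376, 539, 743 and 650 bp of Ser5P, and 587, 234, 592 and 297 bp of Ser2P. Psmb10 had only 201, 146, 221 and 498 bp of Ser5P and 390, 0, 238 and 47 bp of Ser2P in its promoter window. The Ser5P values were the edge of peaks inside the gene, with the summit a median of 1125.5 bp from the 5′ end. The 390 bp of Ser2P in the first control were a separate peak inside the window, with its summit 731 bp from the 5′ end. Coverage and peak rank did not always give the same order within these pairs. The median percentile of the promoter Ser5P peak was 48.7 at Psmb8 and 68.8 at Psmb5, against the order of their coverage. It was 53.5 at Psmb10, from the peaks inside the gene, and 38.6 at Psmb7, also against the order of their coverage. At Psmb9 it was 88.2 and at Psmb6 68.2, in the order of theirs. Psmb11, the thymus-specific beta subunit, had no promoter peak and is described with the gene windows.

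Among the 6 ATPases, all had promoter peaks in all 8 libraries. Psmc5 (chr11:106256185-106263112, plus strand) had the longest Ser5P coverage, 1143, 1075, 1086 and 1139 bp in control 1, control 2, KD 1 and KD 2, and its start lies 101 bp from that of Ftsj3. Psmc4 had the shortest, 314, 488, 508 and 491 bp. The 11 non-ATPase subunits were marked in all 8 libraries too. Psmd11 had the longest Ser5P coverage, 1029, 1104, 1067 and 1061 bp, and Psmd6 the shortest, 394, 299, 328 and 355 bp. Ser2P at Psmd6 covered 317 and 326 bp in dCAS cells and 763 and 621 bp in knockdown cells, so the lines did not overlap with that antibody, while the interaction did not pass (limma adjusted p = 0.482). Coverage length and peak strength did not rank the genes alike: Psmd4, the ubiquitin receptor, had 840, 1021, 886 and 988 bp of Ser5P but the second highest median percentile of its peak, 97.7. Psmd1, the large scaffold of the base, had a median percentile of 96.7 and a median summit position of −3 bp.

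The chaperones of the 19S base were less evenly marked. Psmd5 had 653, 735, 574 and 748 bp of promoter Ser5P. Psmd9 had 334, 287, 306 and 311 bp. Psmd10, also known as gankyrin, had 0 bp in the first Ser5P control and 852, 852 and 880 bp in the other Ser5P libraries, while Ser2P covered 833, 218, 667 and 697 bp. The first Ser5P control was the shallowest of the Ser5P libraries (relative depth 0.566), and the part of depth in the missing call was not tested. Of the assembly chaperones, Psmg1 had the longest Ser5P coverage, 686, 818, 683 and 1109 bp. Psmg3 had the shortest, with 251, 0, 0 and 393 bp of Ser5P and 0, 0, 421 and 0 bp of Ser2P, so no group held a peak in both of its libraries. Psmg4 had the largest Ser2P difference of means between the lines, with 1183 and 560 bp in dCAS cells and 1364 and 1368 bp in knockdown cells, and the second control was the low one.

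All 4 activator genes had promoter peaks in all 8 libraries. Psme3, the nuclear PA28 gamma, had the longest Ser5P coverage, 1205, 1127, 1163 and 1123 bp. Psme1 and Psme2 encode PA28 alpha and beta, which form a joint ring and are induced by interferon gamma. At Psme1 (chr14:55578494-55581527, plus strand) promoter Ser5P covered 968 and 939 bp in dCAS cells and 780 and 779 bp in knockdown cells, while Ser2P covered 728 and 758 bp in dCAS cells and 851 and 1034 bp in knockdown cells. At Psme2 (chr14:55587440-55591101, minus strand) Ser5P covered 1111 and 1128 bp in dCAS cells and 1108 and 814 bp in knockdown cells, while Ser2P covered 853 and 760 bp in dCAS cells and 1167 and 964 bp in knockdown cells. With each antibody the control and KD values did not overlap, Ser5P being lower and Ser2P higher in KD. At Psme2 the Ser5P order rested on the second KD library: the difference of means was −158.5 bp with all libraries, −11.5 bp without it and −305.5 bp without the first. Of the 10342 genes with a promoter peak in at least 1 library, 4.04% showed this order and 0.358% the reverse. Psme1 and Psme2 alone of the 44 proteasome genes with such a peak showed the first order, a share near 4.04%. None of the 47 showed the reverse. In the gene windows 3.76% and 0.202% of genes showed these orders, and none of the 47. The interaction called 0 of 10342 genes at the promoter and 0 of 11370 in the gene window by limma (0.0% each). At the promoter 5 of 44 proteasome genes, and in the gene window 2 of 35, had an unadjusted p under 0.05. No count over all genes stands beside these, so they do not set the proteasome genes apart. Lowest in p among the proteasome genes were Psmb2, at 19.8 percentage points of the window (adjusted p = 0.405), and Psmd3, at −20.8 (adjusted p = 0.418). The interaction was −18.7 points at Psme1 (adjusted p = 0.4365) and −20.9 at Psme2 (adjusted p = 0.57), none past the threshold. Psme2 had the highest median percentile of its promoter Ser5P peak, 98.2. Its start lies 612 bp from that of Rnf31 on the opposite strand.

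In 10 of 47 proteasome genes (21.3%), the start of another protein-coding gene lay within the promoter window, in all 10 on the opposite strand. The share with an opposite-strand start was 10.8% over all genes and 23.9% over the 8111 genes with promoter Ser5P in all 4 libraries, so the proteasome genes were close to other marked genes in this. The pairs were Psma2 with Mrpl32, Psma4 with AY074887, Psma7 with Ss18l1, Psmb3 with Pcgf2, Psmb9 with Tap1, Psmc2 with Dnajc2, Psmc5 with Ftsj3, Psmd13 with Sirt3, Psme2 with Rnf31, and Psmg2 with Cep76. Distances between the 5′ ends ran from 11 bp for Psmc2 to 1000 bp for Psmb3. The median of mean promoter Ser5P coverage was 953.5 bp (584 to 1166 bp) over these 10 genes and 722 bp (161 to 1154.5 bp) over the other 34 marked genes, given as a description since peaks of both genes count in a shared window.

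At the main settings no promoter of a proteasome gene was called as gaining or losing its peaks between the lines. By the rule of a peak in both libraries of one line and neither of the other, 0 of 47 genes were control-only and 0 KD-only for Ser5P, where 0.446% and 0.409% of all genes were called. For Ser2P the counts were likewise 0 and 0, where 0.2% and 1.1% of all genes were called. With shares this low, counts of 0 among 47 genes do not set them apart from other genes. Some alternative settings gave KD-only promoter calls (given below). With 2 libraries against 2 the smallest two-sided exact permutation p is 0.333, so no single gene can pass 0.05 in that test.

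Coverage was also compared as a percentage of the window by limma over all genes with a peak in at least 1 library, with Benjamini-Hochberg adjustment. For promoter Ser5P limma called 0 of 9799 genes higher in KD and 0 lower (0.0% each), and so 0 of 44 proteasome genes, of which 6 had an unadjusted p under 0.05, as had 885 genes in all. The median difference, KD minus control, was 1.399 percentage points over the proteasome genes and 1.77 over all genes. Psmb2 (chr4:126677637-126709715, plus strand), a beta subunit without a proteolytic site, came nearest: its promoter Ser5P coverage was 681 and 646 bp in dCAS cells and 1003 and 969 bp in knockdown cells, a difference of 16.1 percentage points (SE 2.97, limma adjusted p = 0.384, range over alternatives 0.0822 to 0.555). Its Ser2P coverage was 990 and 940 bp in dCAS cells and 944 and 838 bp in knockdown cells, with overlapping groups. At Psma7 the Ser5P difference was 21.1 percentage points (SE 5.97, adjusted p = 0.458). Its adjusted p was 0.0101 when genes without any peak were left in the fit, the only setting run under which limma called a proteasome gene in either comparison of lines.

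Without a test, both KD libraries exceeded both controls in promoter Ser5P coverage at 12 of 47 genes, against 11.7% of all genes, and both lay below at 3, Psma1, Psme1 and Psme2, against 4.94%. Of the 12, 4 were among the 7 constitutive beta genes (Psmb2, Psmb4, Psmb6 and Psmb7) and 3 among the 6 ATPases. The others were 2 of 11 non-ATPase subunits, 1 of 8 alpha genes, 1 of 4 inducible or tissue-specific beta genes and 1 of 4 assembly chaperones. None was among the 4 activators or the 3 chaperones of the 19S base. The roles hold few genes, and differences between them were not tested. Among genes with a promoter Ser5P peak in at least 1 library the background was 25.6% and 10.8%. For promoter Ser2P the counts were 21 and 0, with a background of 21.5% and 1.03% over all genes and of 46.1% and 2.21% over genes with a Ser2P promoter peak. Read against genes with a peak, neither the 12 nor the 21 stood far from the background. The KD lists also came from deeper libraries with wider peaks than the mean of the controls for each antibody (values above), and the part of depth and width in these counts was not tested.

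**Figure D4:**
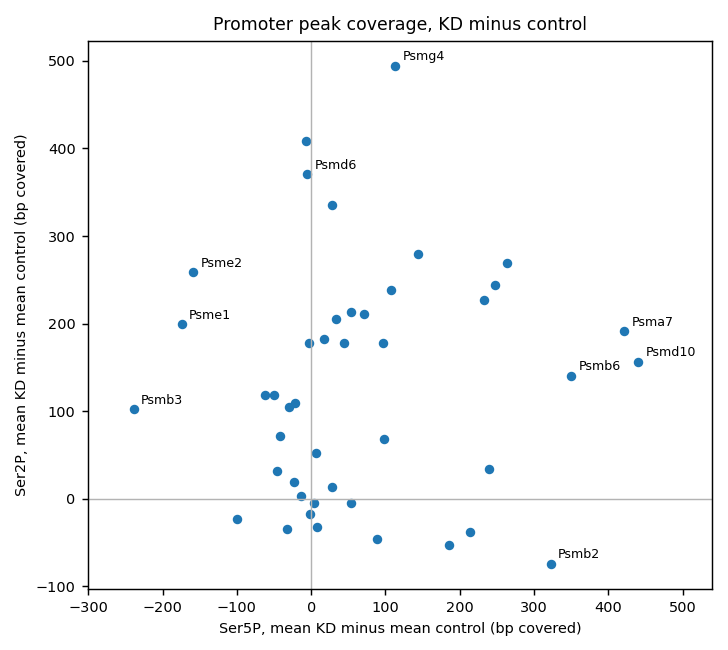
Each point is 1 of the 44 proteasome genes with a promoter peak in at least 1 library, placed by the KD minus control difference of mean covered bp for Ser5P (horizontal) and Ser2P (vertical). Psme1 (−174 and 199.5 bp) and Psme2 (−158.5 and 259 bp) sit at the upper left, and Psmb2 at the lower right.

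Gene windows were marked in fewer proteasome genes than promoters. Ser5P peaks were present in the gene window of 17, 21, 20 and 21 genes by library and Ser2P peaks in 21, 19, 24 and 26. In all 4 libraries Ser5P was present at 10 of 47 genes (21.3%, against 25.5% of all genes). Ser2P was present in all 4 at 14 (29.8%, against 26.4%), so both shares were near the background. Ser5P was absent from all 4 libraries at 18 of 47 genes (54.1% of all genes) and Ser2P at 16 (50.6%). These absences were less frequent than over all genes, many of which also lacked a promoter peak. In 12 genes neither was present. The 14 genes with Ser2P in all 4 libraries had a median length of 18882.5 bp, the 17 with Ser2P in some libraries 12595 bp and the 16 with none 8339 bp, so longer genes were more often marked, as a description, since a longer window has more room for a peak. Of the 42 genes with promoter Ser5P in all 4 libraries, 12 had gene-window Ser2P in all 4 and 13 in none. No count over all genes with such promoters stands beside these, so they do not set the proteasome genes apart.

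**Figure D5:**
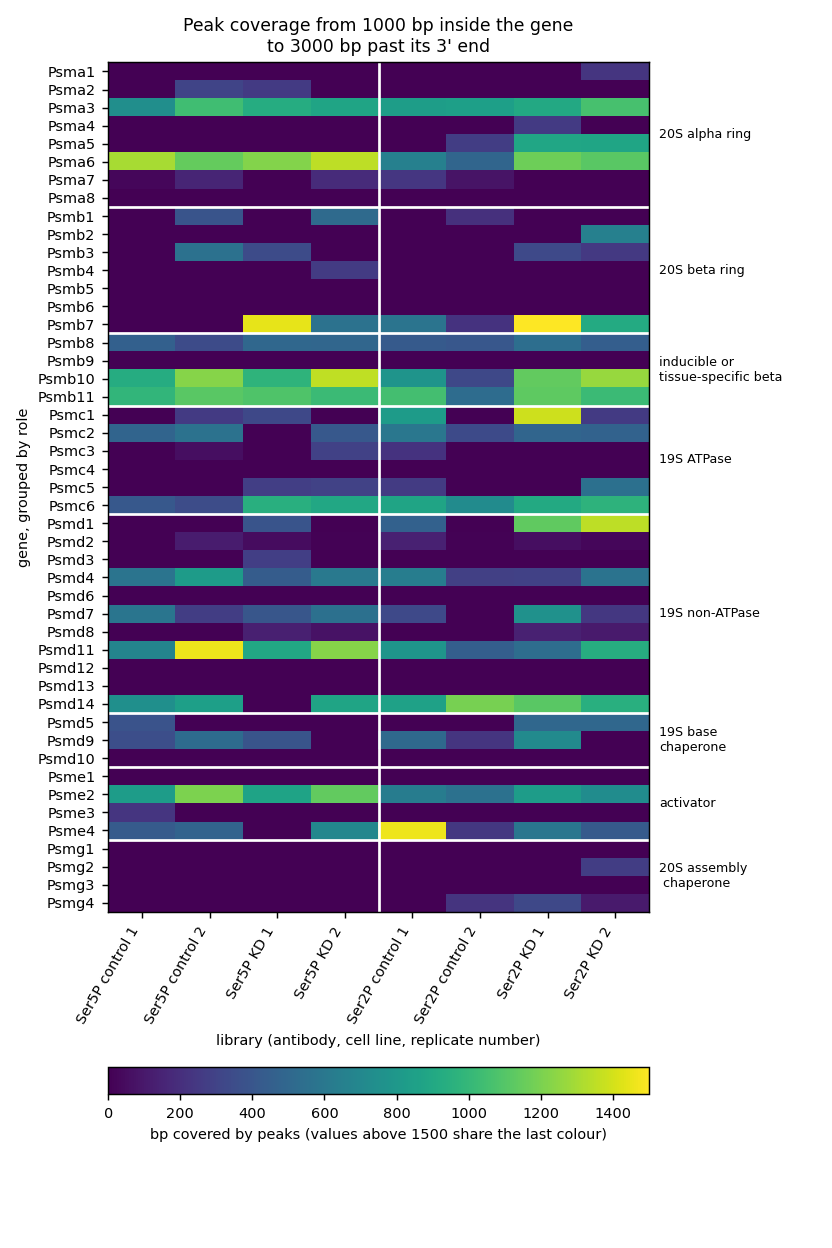
Each cell gives the bp of the gene window (starting 1000 bp downstream of the 5′ end, ending 3000 bp beyond the 3′ end) covered by peaks, for 47 genes by role (rows) and 8 libraries (columns). Psmb11, Psma6 and Psma3 are marked in all 8 columns, and 12 rows are empty.

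Several of the gene-window peaks had another start near them. At Psma6 and Psma3 they included those at the inner starts described above. At Psmc6, the peaks past the 3′ end lay at the start of Styx, and at Psme2 at the start of Emc9. When 1000 bp around the starts of other genes were taken out of the windows, Psmc6, Psme2 and Psme3 lost all their gene-window peaks. Psmb11 had no promoter peak but 1 broad peak past its 3′ end in all 8 libraries, covering 989, 1115, 1084 and 1025 bp with Ser5P and 1052, 529, 1130 and 1022 bp with Ser2P. Its summit lay 862 to 1295 bp past the 3′ end. Psmd4 had gene-window peaks in all 8 libraries, of 576, 821, 436 and 609 bp with Ser5P and 637, 282, 292 and 571 bp with Ser2P.

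Gene-window calls that differed between the lines were few. For Ser2P 1 of 47 genes was control-only, where 0.548% of all genes were, and 3 were KD-only, where 2.25% were. For Ser5P 0 were control-only (1.44% of all genes) and 3 KD-only (1.08% of all genes). Each had an exact permutation p of 0.333. By place and alternative setting, most of these calls rested on short or separate peaks.

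Psmd8 (chr7:29174187-29180673, minus strand), a subunit of the 19S lid, was KD-only with both antibodies, with 0 and 0 bp in dCAS cells against 131 and 73 bp of Ser5P and 135 and 107 bp of Ser2P in the KD libraries. All 8 libraries in fact had a peak there. Its near edge lay 2866 to 2928 bp past the 3′ end in the KD libraries and 3002 to 3477 bp past it in the controls, so only the KD edges fell inside the 3000 bp limit. The summit was 3694 to 3914 bp past the 3′ end, near the start of Spred3. At Psma7 the Ser2P peak in the controls, 236 and 77 bp inside the window, had its summit 3076 and 3262 bp past the 3′ end, and Ser5P peaks with a summit at 3145 bp were called in both controls and in the second KD library. The calls of Psma7 and Psmd8 were lost when at least 200 bp of the window had to be covered.

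Psmd5 (chr2:34852087-34870965, minus strand) had 0 and 0 bp of gene-window Ser2P in the controls and 502 bp in each KD library, from peaks with the same edges and summits 15561 and 15643 bp from the 5′ end. After thinning of the recovered pileups to the depth of the shallowest library the call held in a share of 0.45 of the draws. Psmb3 had 332 and 249 bp of Ser2P in the KD libraries, from 2 separate peaks with summits 11251 and 8921 bp from the 5′ end, and the call was lost with a stricter peak threshold and with equal numbers of peaks. Psmb7 (chr2:38588046-38643952, minus strand) had 1446 and 563 bp of gene-window Ser5P in the KD libraries and none in the controls. The KD libraries shared a peak with its summit 26861 and 26859 bp from the 5′ end. Ser2P at Psmb7 covered 579 and 221 bp in dCAS cells and 2926 and 915 bp in knockdown cells. Psmc5 had 277 and 294 bp of Ser5P in the KD libraries from peaks with summits 6369 and 5858 bp from the 5′ end. The Ser5P calls of Psmb7 and Psmc5 were lost with the stricter threshold, and that of Psmc5 also with equal numbers of peaks. After thinning they held in shares of 0.8 and 0.5 of the draws.

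In limma, gene-window Ser2P coverage differed between the lines at 0 of 10649 genes (0.0% in each direction) and at 0 of 31 proteasome genes, with 6 of these and 925 of all genes at an unadjusted p under 0.05. The median difference was 0.96 percentage points over the proteasome genes and 0.587 over all genes. Both KD libraries exceeded both controls at 12 of 47 genes for Ser2P (16.7% of all genes, 33.9% of those with a peak) and both lay below at 1, Psma7 (1.72% and 3.48%). For Ser5P the counts were 5 (6.96% and 15.2%) and 1, Psmc2 (7.17% and 15.6%).

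Ser5P and Ser2P were then compared with each other over all 8 libraries, with the line as a covariate. Mean promoter coverage was longer for Ser5P at 34 of 44 marked genes and longer for Ser2P at 10. Over all 10342 genes fitted it was longer for Ser5P at 6364 and for Ser2P at 3978. The Ser5P lists also had the wider peaks (values above), and the part of width in these counts was not tested. Within the lines Ser5P was longer at 33 proteasome genes in the controls and 26 in the KD libraries, without a count over all genes beside them. These counts therefore show no change particular to the proteasome genes. The median KD minus control difference in promoter coverage was 28 bp for Ser5P and 118.75 bp for Ser2P over marked proteasome genes. Over all marked genes it was 35.5 and 147 bp. The median Ser5P minus Ser2P difference was 3.59 percentage points over the proteasome genes and 1.76 over all genes. By limma 66 of 10342 genes had more Ser5P (0.638%) and 15 more Ser2P (0.145%), and 0 of 44 proteasome genes passed in either direction. An unadjusted p under 0.05 was reached at 4 of these 44 genes and at 1290 of all 10342. Psma3 had 858, 877, 879 and 872 bp of promoter Ser5P and 777, 515, 632 and 596 bp of Ser2P, a difference of 12.1 percentage points (SE 3.37, adjusted p = 0.217). Psma7 went the other way, with a difference of −13.8 percentage points (SE 4.22, adjusted p = 0.255). In the gene windows 5 genes of 11370 had more Ser5P (0.044%) and 0 more Ser2P (0.0%), and 0 of 35 proteasome genes passed. There 4 of these 35 genes had an unadjusted p under 0.05, as had 1077 of all 11370.

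A list of 32 other genes of the pathway, of which 31 were found, was measured in the same way. They serve ubiquitin supply, shuttling and proteasome assembly or control. In every Ser5P library 26 of the 31 had a promoter peak, in every Ser2P library 25 did, and 15 had gene-window Ser2P in all 4. The shares of all genes were 37.7%, 36.3% and 26.4%. No promoter call differed between the lines, where 0.409% to 0.446% of all genes were called for Ser5P and 0.2% to 1.1% for Ser2P. In the gene window Ubb, a polyubiquitin gene, was KD-only for Ser5P with 223 and 249 bp in knockdown cells, where 1.08% of all genes were. Nsfl1c, a cofactor of the unfoldase Vcp, was control-only for Ser2P with 572 and 265 bp in the controls, and Adrm1, a ubiquitin receptor of the 19S cap, and Txnl1 were KD-only for Ser2P (0.548% of all genes control-only, 2.25% KD-only). By limma 0 of 28 of these genes differed in promoter Ser5P between the lines and 0 of 25 in gene-window Ser2P. Of them 1 and 3 had an unadjusted p under 0.05, as had 885 of 9799 and 925 of 10649 of all genes fitted. Nfe2l1, which encodes a transcription factor known to raise proteasome gene expression when the proteasome is inhibited, had 1190, 1160, 1100 and 1068 bp of promoter Ser5P, and Nfe2l2 1434, 1482, 1418 and 1457 bp. Pomp, the maturation factor of the 20S core, had 1251, 1310, 1199 and 1436 bp. At these genes Ser2P coverage was present in all 4 libraries.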

How the data were processed

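Each library has its own peak list in GRCm38 (mm10) coordinates. MACS2 2.2.7.1, Bowtie2 2.3.5, cutadapt 2.7, Picard 2.21.4, SAMtools 1.9 and deepTools 3.3.1 are named in the submitters' processing notes, without settings. The authors deposited, for each peak, −log10 of p and of q at the summit, the summit's offset, and a ratio, its fold enrichment over local background. Fold and p served only to rank or filter peaks within a list and to recover the whole-number pileups behind them (tolerance 0.001 on −log10 p), whose commonest background gave the relative depth. Read totals were not used here. Sequences other than the autosomes, X and Y were dropped.

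Gene positions came from the RefSeq table for GRCm38.p6, and strand from the RefSeq promoter table (39 of the 47 genes) or from GENCODE by symbol (8). Of 21887 protein-coding genes 352 without a strand were left out. The supplied genome is of another build and was not used for coordinates. The outer end of the gene interval was taken as its 5′ end. An overlap of 1 bp with a peak marked a window. The percentage of the window covered was fitted with limma 3.58.1 (R 4.3.3), and an adjusted p under 0.05 counted as a call. Counting and overlaps used Python 3.11.15. The pileup recovery, the coverage counts and the fit were tested on simulated data.

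Genes were named by a rule: those called in either window, those lacking promoter Ser5P in a library, the highest and lowest of each role in promoter Ser5P, the catalytic pairs and the PA28 pair. The genes, lists and motifs were chosen with earlier results of these data known. Other genes named, such as Psmb2, Psmd1 and Psmd4, were chosen after their values were seen. The main fits did not pair libraries by replicate number, and whether same-numbered libraries shared a culture is not given in the sources used here. Some erythroid marker genes are not reported here.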

Additional observations from a re-analysis of the deposited data

Results flagged for a closer look

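At the promoters of Psme1 and Psme2 the antibodies differed in opposite directions between the lines, with no overlap. For Psme1 the KD minus control difference was −174 bp covered with Ser5P and 199.5 bp with Ser2P. For Psme2 it was −158.5 bp with Ser5P and 259 bp with Ser2P. At Psme2 the Ser5P difference was −11.5 bp without the second KD library, where 1108 bp remained against 1111 and 1128 bp in the controls, and −305.5 bp without the first KD library. The Ser2P difference was 108 bp at Psme1 without the second KD library and 157.5 bp at Psme2 without the first. The genes were picked out because every library of one antibody moved one way and every library of the other the opposite way. The limma interaction did not pass its threshold (adjusted p = 0.4365 and 0.57), and the same order was seen at 4.04% of genes with a promoter peak. Among the 44 proteasome genes with such a peak it was seen at Psme1 and Psme2 alone, a share near that one.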

How the results depend on the processing

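Depth, the 2 libraries per group and the use of called peaks limit these results, since a missing peak is a missing call and not missing polymerase. Quantile-normalized shares for the antibody comparison, gene windows without other genes' starts and crossed replicate numbers were added after the data were seen. For the results reported by counts, 246 of the values under alternatives stayed within 1.5 times the reported count and 76 did not. Where a value moved, the cause was not tested. The counts of proteasome genes with promoter peaks in all libraries stayed between 42 and 43 when 1 library was left out.

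Gene-window Ser2P in all libraries fell from 14 genes to 9 without the 3000 bp past the 3′ end and to 6 around the 3′ end alone, and Ser5P from 10 to 4 without those 3000 bp. With −log10 q of at least 5, the control-only and KD-only counts were 2 and 5 for gene-window Ser2P, 1 and 1 for gene-window Ser5P, and promoter Ser2P had 2 KD-only genes. With equal numbers of peaks, gene-window Ser2P had 2 control-only genes and promoter Ser2P 1 KD-only gene. Gene-window Ser2P control-only calls were 0 with at least 200 bp covered and 0 without the 3000 bp past the 3′ end, where 1 KD-only call was left. Thinned to the shallowest library, a mean of 1.5 genes were KD-only. Leaving out 1 library at a time gave 0 to 1 KD-only genes for promoter Ser5P and 0 to 1 for promoter Ser2P. For gene-window Ser2P it gave 14 to 17 genes marked throughout, 1 to 2 control-only and 4 to 6 KD-only. For gene-window Ser5P it gave 10 to 14 marked throughout, 0 to 4 control-only and 3 to 5 KD-only, the highest of both without the second KD library. One library is then left on one side, which makes the rule easier to meet. The counts in this paragraph are of proteasome genes, without the shares of all genes at the same settings. They do not set the proteasome genes apart from other genes.

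With genes lacking any peak kept in the fit, limma called 287 genes higher and 50 lower in KD for promoter Ser5P, with 1 proteasome gene higher, and 303 and 35 genes for gene-window Ser2P. For promoter Ser5P against Ser2P, the 66 and 15 calls became 29 and 0 in that fit, 0 and 0 in the controls alone, and 0 and 0 in KD alone. The 15 became 9 with −log10 q of at least 5 and 29 with quantile normalization. For the gene window, the 5 and 0 calls became 20 and 4 with −log10 q of at least 5, 30 and 5 with equal numbers of peaks, and 12 and 3 with quantile normalization. More Ser2P was called at 2 genes without the filter, and more Ser5P at 0 in the controls alone and 0 in KD alone. Leaving out 1 library, and assuming that a lone library varies like the others, gave 23 (without the second Ser2P KD library) to 49 promoter calls for Ser5P and 0 to 37 for Ser2P. In the gene window it gave 1 to 9 and 0 to 35. The highest values, 49, 37, 9 and 35, all came without the second Ser2P control. In the comparison of antibodies 0 proteasome genes were called in each of these fits.

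Deviations of same-numbered libraries correlated between −0.104 and 0.094, and the main fits did not pair them. With 2 libraries per group such values cannot show whether same-numbered libraries shared a culture. With a replicate block the promoter calls for Ser5P against Ser2P fell to 11 and 0 and the gene-window calls to 0 and 0, and also to 0 and 0 with the control numbers crossed. The block left the comparisons of lines at 0 calls.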
